A study of Mus musculus with 12 samples.

Results

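The 9 genes described here encode regulators that commit precursor cells to brown or white fat: Prdm16, Ebf2, Ehmt1, Zfp516 and Irf4 on the brown side, Pparg, Cebpa and Cebpb in fat cells of either kind, and Zfp423 in precursors and on the white side. They were chosen by name, and all 9 were on the array among 20660 genes that could be named, with 12 of its 55681 probes (2 for Ehmt1, 3 for Zfp423 and 1 for each other gene). All 12 probes passed the filter on dim signal. A gene with several probes was read from its brightest one, and the others are given beside it.

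Subcutaneous white adipose tissue (scWAT) and brown adipose tissue (BAT) were each taken from WT and from Lr11 -/- mice, and the RNA was hybridised to Agilent mouse arrays with a single dye, 3 for each of the 4 groups. LR11 is a sorting receptor encoded by Sorl1. All mice were C57Bl6/J males aged 12 weeks, the WT mice were littermates, and every group was on a high-fat diet (HFD) with 60% of calories from fat, so there was no group on another diet. By the labels the HFD lasted 4 weeks in 1 field and began at weaning in another, and they do not say whether arrays came from separate or pooled mice, so p values measure the spread between these arrays, which may be technical. The deletion was not tied to a cell type in the labels, and each sample was whole tissue, in which fewer cells of a type and less RNA per cell cannot be told apart.

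PPARγ, the product of Pparg, is the nuclear receptor without which fat cells do not form, and it acts together with C/EBPα, while C/EBPβ comes earlier and helps to switch both genes on. In precursors that become brown, EBF2 opens brown-selective enhancers to PPARγ, and PRDM16 recruits the histone methyltransferase EHMT1 and other partners to raise brown genes and silence others. ZFP516 and IRF4 are known as activators at Ucp1, the gene of the uncoupling protein that lets brown fat mitochondria release heat, whereas ZFP423 marks committed preadipocytes and keeps white fat cells white by restraining EBF2.

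Values below are log2 intensities minus the 75th percentile of their array, with 0 at the brightness of that percentile. The level of a gene may be compared between arrays but not with the level of another gene, since probes differ in brightness. Differences come from a single limma fit to all 12 arrays, adjusted over 32121 tested probes, and a gene is said to be called at an adjusted p under 0.05. For 3 arrays against 3 the smallest p of a two-sided exact permutation test is 0.1, which is the value for every pair of groups below that did not overlap. Array names carry one of 2 series numbers, the lower for replicate 1 of each group (called the first array series here) and the higher for replicates 2 and 3 (the second). In the first series both scWAT arrays were on slide 1 and both BAT arrays on slide 2, so tissue and slide cannot be told apart there. All arrays of the second series were on slide 3.

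The arrays differed in tissue makeup within groups. Summed markers of adipocytes (6 genes) were at 10.7, 8.56 and 9.91 in WT scWAT replicates 1 to 3 and between 10.5 and 11.1 on all other arrays, and those of preadipocytes and fibroblasts (8 genes) were at 9.0, 10.2 and 9.13 in WT scWAT and between 6.88 and 8.15 elsewhere. Skeletal muscle markers (10 genes) reached 12.2 in WT scWAT replicate 3, 11.9 in Lr11 -/- scWAT replicate 1, 10.5 and 10.2 in WT BAT replicates 1 and 3 and 9.64 in Lr11 -/- BAT replicate 1, against at most 2.44 on the others. Ucp1 was between 9.45 and 10.07 in all 6 BAT arrays, as the tissue label has it, and at 4.39, 9.75 and 10.05 in Lr11 -/- scWAT. Sorl1 itself was lower in Lr11 -/- by 20.3-fold in scWAT (log2 difference −4.34, SE 0.42, adjusted p = 0.0063 from limma) and by 12.4-fold in BAT (−3.63, SE 0.42, adjusted p = 0.0319 from limma). With arrays left out the difference in BAT stayed between −3.91 and −3.14, but it was called only without Lr11 -/- scWAT replicate 1, at an adjusted p of up to 0.26 without WT BAT replicate 2, and it was called in 8 of 26 tested alternatives.

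In WT mice 6 of the 9 regulators were higher in BAT than in scWAT and 0 were lower: Pparg, Ebf2, Prdm16, Cebpa, Ehmt1 and Cebpb, in falling order of the log2 difference from 2.49 to 0.89. Of all tested probes 24.8% were called in this comparison, 15.7% higher in BAT and 9.13% lower. The median log2 difference over the 9 genes was 1.09, against 0.07 over all tested probes. For the same 6 genes every WT BAT array was above every WT scWAT array, as groups did not overlap for 40.2% of all probes. Irf4, Zfp516 and Zfp423 were not called, with log2 differences between −0.36 and −0.24.

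In scWAT the means of 8 of the 9 regulators were higher in Lr11 -/- than in WT, but Ebf2 alone was called. Of all tested probes 5.27% were called here, 3.4% higher and 1.87% lower, and 52.5% had a difference above 0. For Ebf2 and Ehmt1 the genotypes did not overlap, as for 20.4% of all probes. At an unadjusted p under 0.05 there were 5 (Pparg, Ebf2, Cebpa, Cebpb and Ehmt1), against 27.6% of all probes. The median log2 difference of the 9 was 0.86, against 0.04 over all probes. This comparison and the one of both tissues in WT share the 3 WT scWAT arrays, so a high or low value there moves both.

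**Figure D1:**
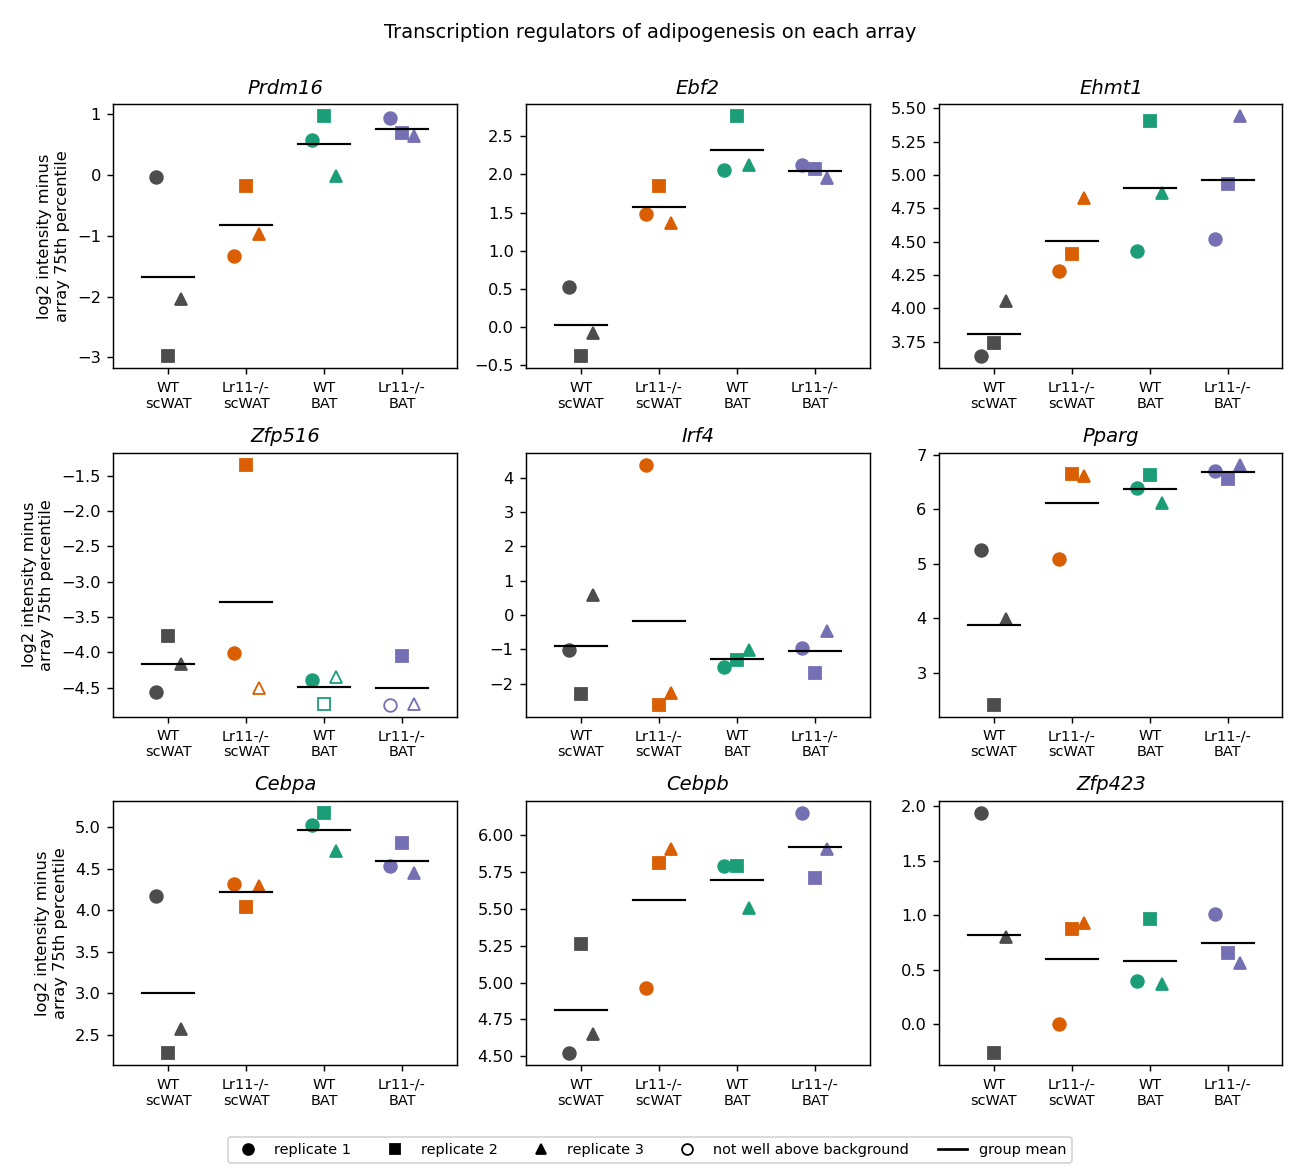
Level of each regulator on the 12 arrays, as log2 intensity minus the array's 75th percentile on a scale of its own for each gene. Symbols are replicates 1 to 3, open symbols were not well above background, and lines are group means. The mean of WT scWAT is the lowest for Ebf2, Pparg, Cebpa, Prdm16, Ehmt1 and Cebpb. Irf4 shows a single high array of Lr11 -/- scWAT at 4.37, and Zfp423 no ordering of the groups.

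Ebf2 encodes an early B cell factor that marks brown precursors and is needed for their identity. It was at 0.53, −0.38 and −0.07 in WT scWAT, at 1.49, 1.85 and 1.36 in Lr11 -/- scWAT, at 2.06, 2.76 and 2.12 in WT BAT and at 2.13, 2.08 and 1.95 in Lr11 -/- BAT. The 3 WT scWAT arrays were the lowest of the 12, the Lr11 -/- scWAT arrays came next without overlap with either neighbour, and the BAT groups overlapped.

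Ebf2 was 4.89-fold higher in BAT than in scWAT of WT mice (log2 difference 2.29, SE 0.28, 95% interval 1.67 to 2.91, adjusted p = 0.00207 from limma). It was 2.92-fold higher in Lr11 -/- than in WT scWAT (log2 difference 1.54, SE 0.28, 95% interval 0.93 to 2.16, adjusted p = 0.0297 from limma). The call of the tissue difference held with each of the 12 arrays left out, while that of the genotype difference held when WT BAT replicate 2, Lr11 -/- scWAT replicate 1 or either WT scWAT replicate 1 or 3 was left out, and was lost without any other array. Its adjusted p was highest without Lr11 -/- scWAT replicate 2 (0.139), with a log2 difference between 1.34 and 1.80 throughout. It was also lost without scaling, without the filter and with only scWAT arrays fitted. The genotype difference in scWAT was 0.96 in the first array series and 1.84 in the second.

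In Lr11 -/- mice the tissue difference of Ebf2 was 0.48 (SE 0.28, 95% interval −0.14 to 1.1, adjusted p = 0.646 from limma), although the groups did not overlap. In BAT the genotype difference was −0.26, with a 95% interval of −0.88 to 0.35. The genotype difference in BAT minus that in scWAT was −1.81 (SE 0.40, adjusted p = 0.295 from limma), past an unadjusted threshold of 0.05 but not called. In this interaction 0 of 32121 probes were called (0%), and 11% were at an unadjusted p under 0.05.

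Prdm16 encodes the zinc finger regulator that turns precursors of the muscle lineage toward brown fat. It was at −0.04, −2.98 and −2.04 in WT scWAT, at −1.33, −0.19 and −0.98 in Lr11 -/- scWAT, at 0.58, 0.96 and −0.02 in WT BAT and at 0.93, 0.69 and 0.64 in Lr11 -/- BAT. All BAT arrays were above all scWAT arrays, by a narrow gap between WT BAT replicate 3 and WT scWAT replicate 1, and both scWAT groups overlapped.

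In WT mice Prdm16 was 4.57-fold higher in BAT (log2 difference 2.19, SE 0.62, 95% interval 0.83 to 3.56, adjusted p = 0.0276 from limma). The call was lost without WT scWAT replicate 2 or 3 or WT BAT replicate 1 or 2, at an adjusted p of up to 0.102. It was also lost with the slide as a block (log2 difference 2.42, adjusted p = 0.0562 from limma), without scaling, without the filter on dim probes and in a fit to the WT arrays alone (adjusted p = 0.0982 from limma). In Lr11 -/- mice the tissue difference was 1.59 (SE 0.62, 95% interval 0.22 to 2.95), which was not called (adjusted p = 0.486 from limma). Between the genotypes in scWAT it was 0.86 (SE 0.62, 95% interval −0.51 to 2.22, adjusted p = 0.395 from limma), being −1.28 in the first array series and 1.92 in the second.

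Ehmt1 encodes the methyltransferase of histone H3 that PRDM16 recruits. Its brighter probe was at 3.64, 3.74 and 4.05 in WT scWAT, at 4.28, 4.41 and 4.83 in Lr11 -/- scWAT, at 4.43, 5.41 and 4.87 in WT BAT and at 4.52, 4.93 and 5.44 in Lr11 -/- BAT. The WT scWAT arrays were the 3 lowest, and the other groups overlapped with each other.

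By this probe Ehmt1 was 2.13-fold higher in BAT of WT mice (log2 difference 1.09, SE 0.31, 95% interval 0.40 to 1.78, adjusted p = 0.0287 from limma). Between the genotypes in scWAT the difference was 0.70 (SE 0.31, 95% interval 0.01 to 1.39), which was not called (adjusted p = 0.175 from limma), and was 0.64 and 0.73 in the 2 array series. The second probe did not show the same: its tissue difference in WT was 0.21 (SE 0.19, adjusted p = 0.449 from limma) and its genotype difference in scWAT 0.10 (SE 0.19). The 95% intervals of both probes for the tissue difference overlapped, 0.40 to 1.78 and −0.22 to 0.63, and with the mean of both probes Ehmt1 was not called. The tissue call was also lost without WT scWAT replicate 1 or 2 or WT BAT replicate 2 or 3, at an adjusted p of up to 0.116, and without scaling, without the filter, with array weights or with the WT arrays alone.

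Zfp516 encodes a zinc finger protein that cold exposure brings to the Ucp1 promoter. Its probe was dim, at −4.56, −3.77 and −4.16 in WT scWAT, at −4.00, −1.35 and −4.50 in Lr11 -/- scWAT, at −4.39, −4.73 and −4.35 in WT BAT and at −4.74, −4.04 and −4.73 in Lr11 -/- BAT. It was well above background on all 3 arrays of WT scWAT, 2 of Lr11 -/- scWAT and 1 of each BAT group, so most BAT values are at the limit of the measurement. Lr11 -/- scWAT replicate 2 stood above all others, and without it the genotype difference in scWAT went from 0.88 (SE 0.65, adjusted p = 0.409 from limma) to −0.09.

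Irf4 encodes an interferon regulatory factor that works with PGC-1α in brown fat and is also strongly expressed in B lymphocytes and plasma cells. It was at −1.01, −2.31 and 0.57 in WT scWAT, at 4.37, −2.60 and −2.26 in Lr11 -/- scWAT, at −1.52, −1.31 and −1.01 in WT BAT and at −0.97, −1.70 and −0.47 in Lr11 -/- BAT. Lr11 -/- scWAT replicate 1 was far above every other array, while the remaining arrays of that group were among the lowest, so the groups overlapped in every comparison.

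The standard error of Irf4 was 1.51, and only 0.95% of the tested probes had a larger one. Its genotype difference in scWAT was 0.75 (95% interval −2.59 to 4.09) over all arrays, 5.38 in the first array series and −1.57 in the second. On the high array the summed markers of B lymphocytes (8 genes) were at 0.96, the lowest of the 12 arrays (0.96 to 2.09), those of macrophages (7 genes) were at 6.28 (5.56 to 8.36), those of epithelium (6 genes) at 5.42 against at most 3.08 elsewhere, and those of skeletal muscle at 11.9. Of the 8 B lymphocyte markers 2 to 4 were well above background in Lr11 -/- scWAT. WT scWAT replicate 3, second for epithelium and first for muscle, also had the second highest Irf4. Its epithelium sum rests largely on Krt18 (2.93), with Krt8 at −0.88 and the other markers between −5.84 (Epcam) and −3.08 (Krt14). Muscle markers were also high on WT BAT replicates 1 and 3 and Lr11 -/- BAT replicate 1. There Irf4 was at −1.52, −1.01 and −0.97. The part of B lymphocytes, macrophages, epithelium and muscle in the Irf4 values was not tested.

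Pparg stood close to its BAT level on 2 of the 3 Lr11 -/- scWAT arrays. It was at 5.25, 2.42 and 3.98 in WT scWAT, at 5.09, 6.64 and 6.61 in Lr11 -/- scWAT, at 6.38, 6.63 and 6.11 in WT BAT and at 6.70, 6.55 and 6.81 in Lr11 -/- BAT. WT scWAT was below both BAT groups on every array, and its replicate 1 was above replicate 1 of Lr11 -/- scWAT, so the scWAT groups overlapped.

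In WT mice Pparg was 5.62-fold higher in BAT (log2 difference 2.49, SE 0.62, 95% interval 1.12 to 3.87, adjusted p = 0.0177 from limma). The call was lost without WT BAT replicate 1 or 2, at an adjusted p of up to 0.0678, with the slide as a block (log2 difference 2.57, adjusted p = 0.0602 from limma) and in a fit to the WT arrays alone (adjusted p = 0.0605 from limma). In scWAT the genotype difference was 2.23 (SE 0.62, 95% interval 0.85 to 3.60), which was not called (adjusted p = 0.0603 from limma). It was −0.16 in the first array series and 3.42 in the second, and it was called when replicate 1 of either scWAT group was left out, at an adjusted p down to 0.0163. In Lr11 -/- mice the tissue difference was 0.57, with a 95% interval of −0.80 to 1.95.

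Cebpa encodes the late C/EBP factor that holds fat cells in the mature state. It was at 4.18, 2.28 and 2.57 in WT scWAT, at 4.31, 4.05 and 4.29 in Lr11 -/- scWAT, at 5.02, 5.17 and 4.71 in WT BAT and at 4.54, 4.81 and 4.45 in Lr11 -/- BAT. Both BAT groups were above both scWAT groups on every array and overlapped each other, and WT scWAT replicate 1 was within the range of Lr11 -/- scWAT, above its replicate 2.

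In WT mice Cebpa was 3.89-fold higher in BAT (log2 difference 1.96, SE 0.41, 95% interval 1.05 to 2.87, adjusted p = 0.00933 from limma), a call that held with each of the 12 arrays left out and was lost in a fit to the WT arrays alone (adjusted p = 0.055 from limma). In scWAT the genotype difference was 1.21 (SE 0.41, 95% interval 0.30 to 2.12), which was not called (adjusted p = 0.0966 from limma). It was 0.14 and 1.75 in the first and second array series, and it was called without WT scWAT replicate 1 (adjusted p = 0.0072). In Lr11 -/- mice the tissue difference was 0.38 (SE 0.41, adjusted p = 0.793 from limma).

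Cebpb encodes the early C/EBP factor, which also takes part in brown commitment with PRDM16. It was at 4.52, 5.26 and 4.65 in WT scWAT, at 4.96, 5.81 and 5.90 in Lr11 -/- scWAT, at 5.79, 5.79 and 5.50 in WT BAT and at 6.15, 5.71 and 5.91 in Lr11 -/- BAT. WT scWAT was below both BAT groups, and Lr11 -/- scWAT overlapped with all 3 other groups.

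Cebpb was 1.85-fold higher in BAT of WT mice (log2 difference 0.89, SE 0.29, 95% interval 0.24 to 1.54), close to the threshold (adjusted p = 0.0496 from limma). The call held with Lr11 -/- scWAT replicate 1 or WT scWAT replicate 2 left out and was lost without any other array, at an adjusted p of up to 0.141. It was also lost with the array series as a block (adjusted p = 0.0504 from limma) or the slide as a block (log2 difference 0.58, adjusted p = 0.147 from limma), with quantile normalization, without scaling, without the filter, and in the second series or the WT arrays alone. In scWAT the genotype difference was 0.75 (SE 0.29, 95% interval 0.10 to 1.40, adjusted p = 0.133 from limma), at 0.44 and 0.90 in the 2 array series. It was called without Lr11 -/- scWAT replicate 1 (adjusted p = 0.0219).

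Zfp423 encodes the zinc finger regulator of preadipocyte commitment that also restrains the thermogenic program of white fat cells. Its brightest probe was at 1.93, −0.26 and 0.80 in WT scWAT, at 0.00, 0.87 and 0.93 in Lr11 -/- scWAT, at 0.40, 0.96 and 0.37 in WT BAT and at 1.02, 0.65 and 0.56 in Lr11 -/- BAT. All 4 groups overlapped, and the widest spread was within WT scWAT.

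The tissue difference of Zfp423 in WT was −0.24 (95% interval −1.30 to 0.82) and its genotype difference in scWAT −0.22 (95% interval −1.28 to 0.84), both uncalled. The latter was −1.93 in the first array series and 0.63 in the second. The other 2 probes gave differences between −0.10 and 0.07 in the 4 pairs of groups, so 0 of 3 probes were called in any comparison.

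**Figure D2:**
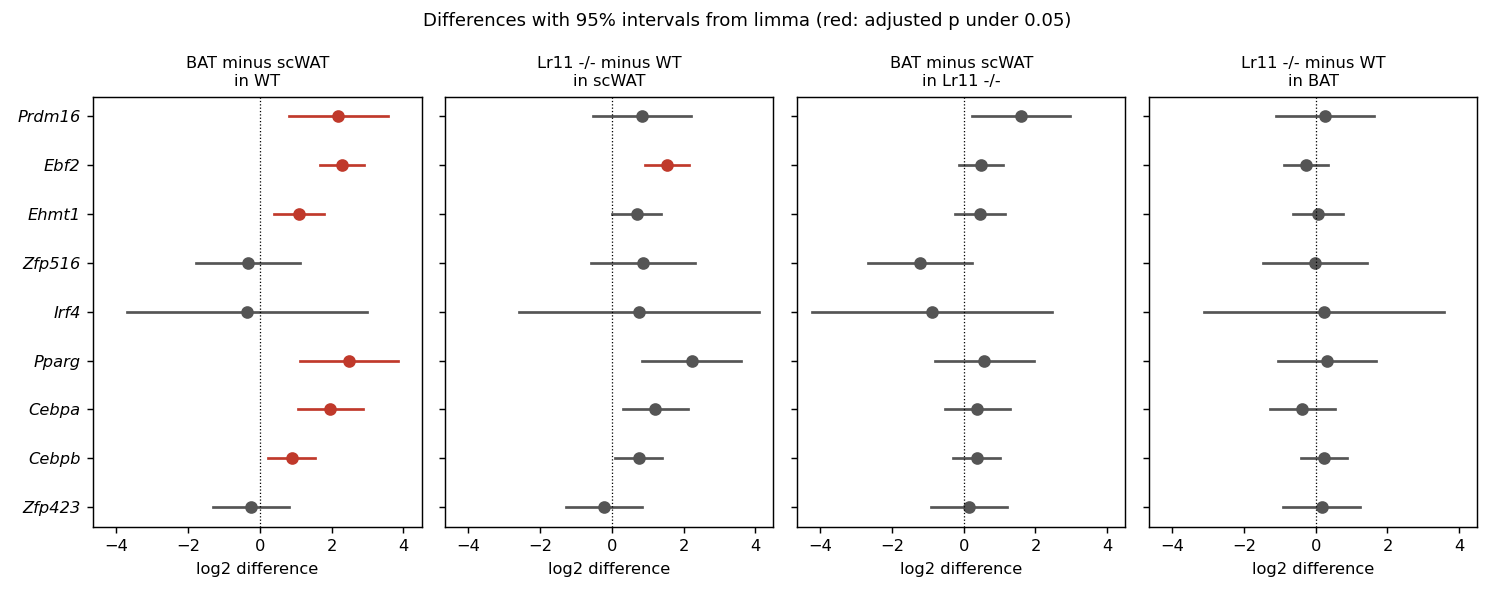
Log2 difference of each regulator in 4 comparisons, with 95% intervals from limma over all 12 arrays. Red marks an adjusted p under 0.05: 6 genes between the tissues of WT mice, Ebf2 between the genotypes in scWAT, and 0 in the comparisons on the right.

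In the other comparisons 0 of 9 regulators were called. Between the tissues of Lr11 -/- mice the log2 differences ran from −1.22 for Zfp516 to 1.59 for Prdm16, with a median of 0.38, 1 gene (Prdm16) at an unadjusted p under 0.05 and 3 (Prdm16, Ebf2 and Cebpa) without overlap. Of all probes 0.0405% were called there, 9% were at an unadjusted p under 0.05 and 23.2% did not overlap. Between the genotypes in BAT the differences ran from −0.37 for Cebpa to 0.31 for Pparg, 0 genes were at an unadjusted p under 0.05 and 0 were without overlap, against 0.0187% called, 2.12% and 12% of all probes. The intervals leave room for a change in BAT: they reached from −1.28 to 0.54 for Cebpa, from −1.06 to 1.69 for Pparg and from −1.12 to 1.61 for Prdm16. The interaction of genotype and tissue was −1.58 for Cebpa (SE 0.58, adjusted p = 0.408 from limma, under 0.05 unadjusted) and −1.92 for Pparg (SE 0.88, adjusted p = 0.459 from limma).

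In scWAT the array series gave different pictures. Replicate 1 of both genotypes differed by −0.16 for Pparg, 0.14 for Cebpa and −1.28 for Prdm16, whereas replicates 2 and 3 alone gave 3.42, 1.75 and 1.92, and there 4 regulators were called (those 3 and Ebf2). Calls rose over all probes as well, to 7365 in the second series alone from 1692 in the fit to all arrays. Of the 9 genes Ebf2, Cebpa, Cebpb, Ehmt1 and Zfp516 had a difference above 0 in both series.

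**Figure D3:**
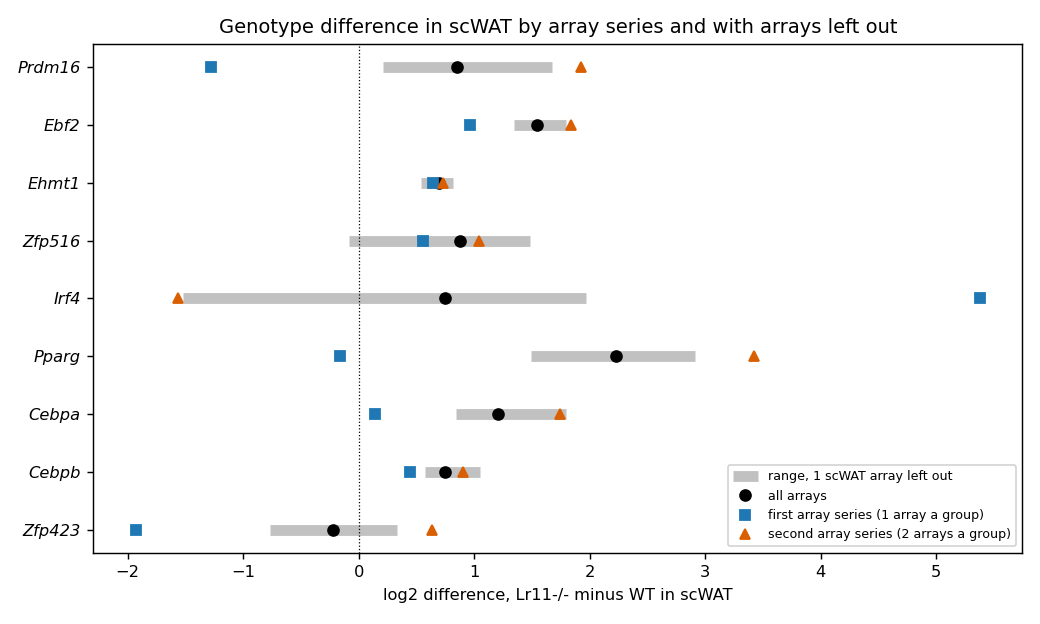
Log2 difference between Lr11 -/- and WT in scWAT for each regulator, over all arrays (circles), in the first array series with 1 array a group (squares) and in the second with 2 a group (triangles). Grey bars span the values with each scWAT array left out in turn. Ebf2, Ehmt1, Cebpa and Cebpb stay to the right of 0 throughout, while Irf4 runs from −1.57 to 5.38.

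Some of the regulators were low on the array with the lowest adipocyte markers, and others were not. WT scWAT replicate 2 was lowest of the 12 arrays for Pparg, Cebpa, Prdm16, Ebf2 and Zfp423, and it was also lowest for summed adipocyte markers (8.56) and brown adipocyte markers (1.57) and highest for markers of preadipocytes and fibroblasts (10.2), macrophages (8.36) and dendritic cells (4.16). The dendritic cell sum there rests largely on Itgax (4.04). The other markers of that list were between −4.84 (Xcr1, not well above background) and −0.61 (Batf3). Adipoq, which every mature fat cell expresses, was at 8.55, 3.84 and 6.61 in WT scWAT. On WT scWAT replicate 2 Cebpb (5.26) and Zfp516 (−3.77) were the highest of their group. On WT scWAT replicate 1, with adipocyte markers at 10.7, Cebpb (4.52) and Ehmt1 (3.64) were the lowest of the 12 arrays. The 6 adipocyte markers were well above background on every array, whereas 3 to 6 of the 6 brown adipocyte markers were in WT scWAT. Brown adipocyte markers were between 1.57 and 8.03 in WT scWAT, between 8.63 and 11.8 in Lr11 -/- scWAT and between 11.3 and 11.8 in BAT. Zic1, 1 of these 6 genes, did not follow the order of the sums. Its Lr11 -/- scWAT arrays read −3.79, −3.79 and −3.00, lower than WT scWAT replicates 2 (0.76) and 3 (0.46). They were above replicate 1 (−6.86), where Zic1 was not well above background. On WT scWAT replicate 2 Zic1 was the brightest of the 6, so the sum of 1.57 rests largely on it. The part of adipocyte content in the differences of the regulators was not tested.

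**Figure D4:**
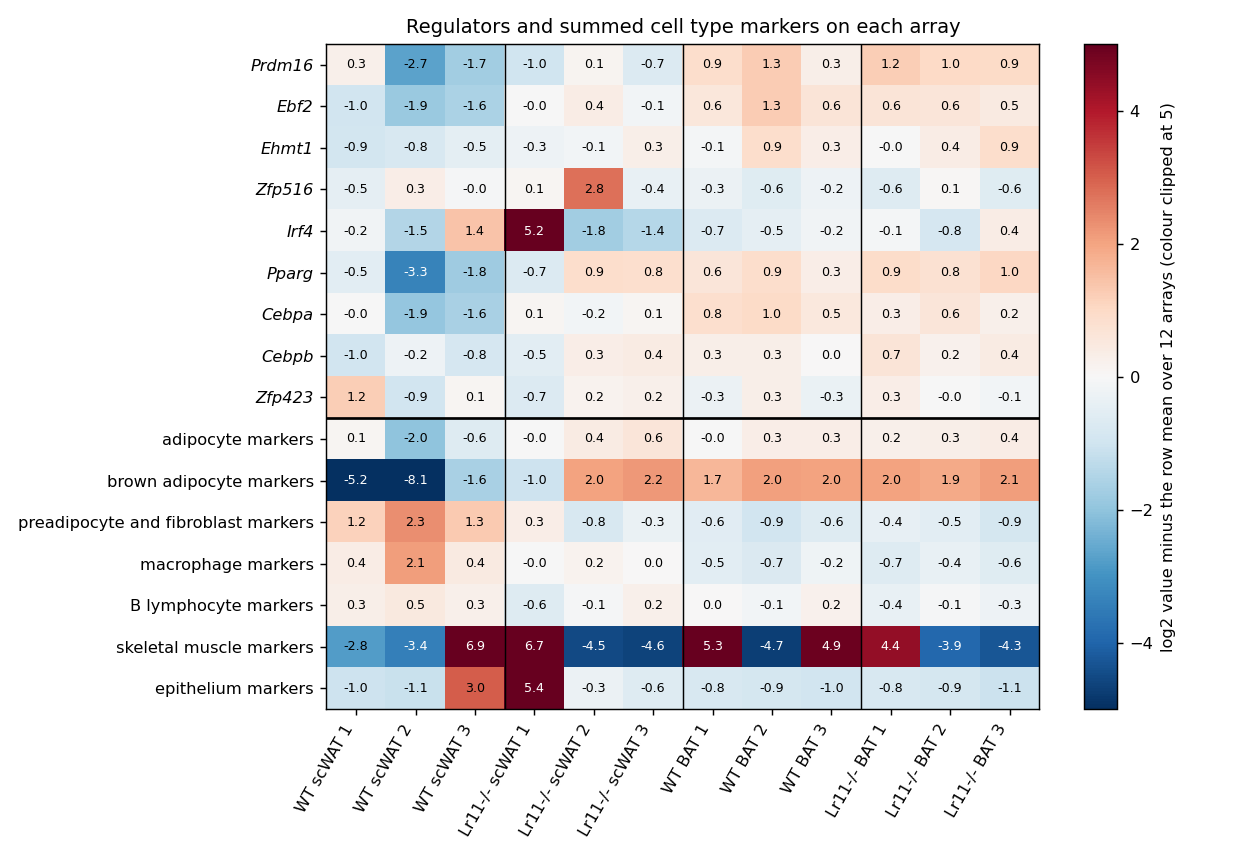
Log2 values of the regulators (above the line) and summed levels of cell type markers (below it) on each array, minus the mean of the row over the 12 arrays. WT scWAT replicate 2 is pale or blue for most regulators and for adipocyte markers and red for fibroblast and macrophage markers, and Lr11 -/- scWAT replicate 1 stands out for Irf4, epithelium and skeletal muscle.

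Promoter sequence is shown for 3 genes of the C/EBP and PPARγ circuit and its precursor regulator, because C/EBP factors are known to act on Pparg and on their own genes. The windows are the 250 bases before a RefSeq transcription start on GRCm38.p6, written 5′ to 3′ on the strand of the gene. RefSeq windows were at hand for 7 of the 9 regulators, all but Ebf2 and Zfp516. Capitals mark matches on either strand to TTGCNNAA, a C/EBP-type motif that 9.56% of 32851 such windows hold.
Pparg, the most downstream of its 3 starts, chr6:115421816-115422065, plus strand: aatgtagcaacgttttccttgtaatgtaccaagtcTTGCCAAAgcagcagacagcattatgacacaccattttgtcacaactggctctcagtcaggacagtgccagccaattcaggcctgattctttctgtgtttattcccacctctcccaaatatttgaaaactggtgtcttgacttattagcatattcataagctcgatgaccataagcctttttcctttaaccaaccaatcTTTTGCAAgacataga
Cebpa, chr7:35119043-35119292, plus strand: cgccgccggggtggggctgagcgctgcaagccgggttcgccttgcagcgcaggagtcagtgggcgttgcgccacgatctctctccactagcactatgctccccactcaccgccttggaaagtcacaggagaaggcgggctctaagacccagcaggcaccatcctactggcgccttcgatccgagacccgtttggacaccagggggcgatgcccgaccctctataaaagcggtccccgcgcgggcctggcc
Zfp423, first of its 2 starts, chr8:87959596-87959845, minus strand: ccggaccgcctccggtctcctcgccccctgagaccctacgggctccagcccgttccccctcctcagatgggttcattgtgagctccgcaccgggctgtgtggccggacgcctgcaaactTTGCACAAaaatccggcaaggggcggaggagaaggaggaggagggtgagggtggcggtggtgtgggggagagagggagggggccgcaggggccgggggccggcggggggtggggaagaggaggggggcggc

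The Pparg window held a pair of matches, TTGCCAAA beginning 215 bases before the start and TTTTGCAA beginning 16 bases before it, and was the poorest of the regulators' windows in G and C (40.8%). The window of Cebpa held 0 matches, at 66.4% G and C. Zfp423 held 1, TTGCACAA beginning 131 bases before the start. The windows of the other 2 Pparg starts and the second Zfp423 start, and those of Prdm16, Cebpb, Irf4 and Ehmt1, held 0. Motifs of the EBF type (TCCC and GGGA with 2 bases between, in 0.779% of all windows), the IRF type (GAAA and GAAA with 2 bases between, 2.98%) and the PPAR/RXR type (AGGNCA and AGGNCA with 1 base between, 0.338%) had 0 matches in the regulators' windows. A match or its absence says only which letters the window holds.

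The lists of other genes that follow were drawn up with earlier results of these data known, so their counts describe these arrays and are no independent evidence of a direction. Their counts are to be read beside the shares of all tested probes. In BAT against scWAT of WT mice 15.7% were called higher and 9.13% lower. In Lr11 -/- against WT scWAT 3.4% were called higher and 1.87% lower. Of 16 brown-selective genes (targets of PRDM16 and EBF2) 14 were higher and 0 lower in BAT than in scWAT of WT mice, with a median log2 difference of 5.58. Ucp1 differed by 11.84 (SE 1.92, adjusted p = 0.00428 from limma), and Cidea, a lipid droplet protein, by 9.67 (SE 1.91, adjusted p = 0.00765 from limma). Both were well above background on 2 of the 3 WT scWAT arrays and not on replicate 2, so the sizes of these differences rest in part on background. In scWAT 8 were higher and 0 lower in Lr11 -/- than in WT, with a median of 4.85. Ucp1 was at −4.63, −4.52 and 2.92 in WT scWAT, so that each Lr11 -/- array was above each of these, and differed by 10.14 (SE 1.92, adjusted p = 0.0326 from limma). With arrays left out the count ran from 8 (without WT BAT replicate 2) to 14 between the tissues. Between the genotypes it ran from 0 (without Lr11 -/- scWAT replicate 2 or 3 or any BAT array) through 2 (without WT scWAT replicate 2) to 13 (without Lr11 -/- scWAT replicate 1).

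Of 18 general adipocyte genes (targets of PPARγ and C/EBPα) 7 were higher and 0 lower in BAT of WT mice, with a median of 2.13. Fasn, which makes fatty acids, differed by 5.43 (SE 1.36, adjusted p = 0.018 from limma) and Pck1, which supplies glycerol, by 4.00 (SE 0.72, adjusted p = 0.00559 from limma). In Lr11 -/- scWAT 1 was higher, Pck1 by 3.77 (SE 0.72, adjusted p = 0.0327 from limma), with a median of 1.84. With arrays left out the count of 7 ran from 1 (without WT BAT replicate 1 or 2) to 13 (without WT scWAT replicate 1), being 4 or lower without any BAT array or replicate 2 of either scWAT group, and it was 2 with quantile normalization and 3 without scaling. The count of 1 became 12 when replicate 1 of WT scWAT was left out, to 5 when it was replicate 1 of Lr11 -/- scWAT and to 3 when it was replicate 3 of WT scWAT. It was 0 when replicate 2 or 3 of Lr11 -/- scWAT or any BAT array was left out. Of 13 tested white-selective genes (of 16) 6 were lower and 0 higher in BAT of WT mice, with a median of −2.39, and 0 were called between the genotypes in scWAT. The count of 6 ran from 3 (without WT BAT replicate 2) to 8 with arrays left out. Between the genotypes up to 2 were lower (without Lr11 -/- scWAT replicate 1) and up to 1 higher, and the median ran from −0.82 (without WT scWAT replicate 2) to 0.44 (without WT scWAT replicate 1).

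Among other regulators tied to brown or beige fat (24 tested of 25) 9 were higher and 1 lower in BAT of WT mice. The 9 became 3 without WT BAT replicate 2, 4 without WT scWAT replicate 2, 5 without WT BAT replicate 1 and 4 without scaling. Ppargc1a, the coactivator PGC-1α, was at −1.66, −2.90 and 0.32 in WT scWAT, at 0.98, 4.49 and 3.79 in Lr11 -/- scWAT and between 2.84 and 5.36 in BAT. Its scWAT groups did not overlap, and it was called between the tissues of WT mice (4.72, SE 0.91, adjusted p = 0.00707 from limma) and between the genotypes in scWAT (4.50, SE 0.91, adjusted p = 0.037 from limma). Ppara, a nuclear receptor of fatty acid oxidation, was the only other of the 24 called between the genotypes in scWAT, by 4.77 (SE 1.22, adjusted p = 0.0498 from limma). That count of 2 ran from 0 to 7 with arrays left out, being 0 without replicate 2 of either scWAT group, Lr11 -/- scWAT replicate 3 or any BAT array. Hoxc9, a homeobox gene of posterior position, was the lower one in BAT, at least 104-fold in WT and at least 118-fold in Lr11 -/- mice, being not well above background in BAT. Hoxc9 is also counted among the white-selective genes.

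Of 22 other C/EBP family members and early drivers of adipogenesis 5 were higher and 0 lower in BAT of WT mice, Zfp467 (2.01), Ebf3 (1.72), Rxrg (1.13), Stat5a (0.93) and Rxrb (0.90), and the median was 0.27 (−0.05 without scaling of the arrays). Without scaling 1 was higher and 1 lower, and with arrays left out from 2 to 7 were higher and up to 2 lower, with 3 or fewer higher without any BAT array, Lr11 -/- scWAT replicate 2 or 3 or WT scWAT replicate 2. Zfp467, a zinc finger cofactor of C/EBP factors, was at 0.66, 0.23 and 1.56 in WT scWAT and at 3.12, 1.94 and 2.03 in Lr11 -/- scWAT, without overlap. It was the one gene of this list called between these groups (1.54, SE 0.38, adjusted p = 0.0464 from limma). With arrays left out the list gave 0 to 4 higher there.

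Of 18 regulators that hold adipogenesis back 1 was higher and 1 lower in BAT of WT mice. Zfp521, an antagonist of EBF factors, was lower (−2.12, SE 0.50, adjusted p = 0.0146 from limma), and Gata2, a preadipocyte factor, was higher at the edge of the threshold (1.19, SE 0.39, adjusted p = 0.0499 from limma). Between the genotypes in scWAT 0 of the 18 were called and 7 were at an unadjusted p under 0.05, against 27.6% of all probes, with a median of −0.42. With arrays left out from 0 to 2 were higher and from 0 to 3 lower between the tissues, and up to 1 was higher and up to 2 lower between the genotypes. Of 13 tested regulators tied to white fat or acting against brown fat (of 15) Hoxc10 (−5.03) and Foxp1 (−1.06) were lower in BAT of WT mice, and 0 were called between the genotypes in scWAT. Hoxc10 is also counted among the white-selective genes. In WT BAT it cleared the background on only 1 of 3 arrays, so the size of its difference rests in part on background. From 1 to 4 of the 13 were lower between the tissues with arrays left out, and up to 1 was lower and up to 1 higher between the genotypes.

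Among 20 partners of PRDM16, EHMT1, EBF2 and IRF4, 3 were higher and 1 lower in BAT of WT mice, and the median was 0.15 (−0.17 without scaling). Neither count was above the share of all probes (15.7% higher and 9.13% lower). The deacetylase gene Hdac2 was higher at the edge of the threshold (0.74, SE 0.25, adjusted p = 0.0499 from limma). Ppargc1a, which this list shares with that of brown and beige regulators, was higher too. Suv39h1, another histone methyltransferase gene, was lower (−1.20, SE 0.31, adjusted p = 0.0199 from limma). With arrays left out from 1 to 3 were higher and from 0 to 2 lower, with 0 lower without WT BAT replicate 1 or 2 or WT scWAT replicate 2. Among 8 other interferon regulatory factors 1 was higher and 1 lower in BAT of WT mice, the latter being Irf5 (−2.12, SE 0.55, adjusted p = 0.0199 from limma). In this list 0 to 2 were higher and 0 to 2 lower with arrays left out, and 0 were lower without WT BAT replicate 1 or 2. In BAT 0 genes of any of these 9 lists were called between the genotypes, against 0.0187% of all probes.

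Of 14702 genes with a tested probe Mmut, a mitochondrial mutase gene, had the profile most like Pparg over the 12 arrays (Pearson r = 0.996), followed by Marchf5 (0.995) and Mccc1 (0.992). Most alike to Ebf2 was Pde1a (0.966), to Prdm16 the adrenergic receptor gene Adra1b (0.973), to Cebpa Hnmt (0.965), to Cebpb Ciao2a (0.979) and to Ehmt1 Spag7 (0.99). Most alike to Zfp516 was Gdpd3 (0.967), to Irf4 C2cd2 (0.956) and to Zfp423 the histone gene H2bc4 (0.947). Among the regulators r ran from 0.53 to 0.92 for pairs of Prdm16, Ebf2, Pparg, Cebpa, Cebpb and Ehmt1 and from −0.47 to 0.45 for pairs with Irf4, Zfp516 or Zfp423. All of these rest on 12 arrays of 4 groups that share tissue makeup and scaling.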

How the data were processed

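The authors deposited, per array, the intensity of each spot as Agilent Feature Extraction 10.10 gave it, background-subtracted and detrended within the array but neither scaled between arrays nor in log2. Apart from controls, 59305 of the 62976 features on an array were used, which stand for 55681 probes. Outlier spots (128 to 181 per array) were left out, 0 spots were saturated, and between 32377 and 37002 were well above background. Intensities were taken to log2, spots of a probe were averaged, and the array's 75th percentile (374 to 632) was subtracted. A probe was tested if some group had it well above background on each of its 3 arrays, as 32121 did. RefSeq accessions were matched to symbols through RefSeq genes on GRCm38.p6 (27235 of 28685 probes with an accession), the build of the promoter windows.

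limma 3.58.1 in R 4.3.3 fitted a mean for each of 4 groups (lmFit and eBayes, 8 residual and 2.61 prior degrees of freedom), with Benjamini-Hochberg adjustment over all tested probes. The limma fit was tested on simulated data with independent noise, for the genotype difference in scWAT only. The permutation test was checked on made-up values. Scaling, the filter and the motif search were not tested in this way. The 9 regulators, the 9 gene lists and the marker lists were chosen with earlier results of these data known. Named list genes are the 3 with the largest called rise and fall per list and comparison, and others named beside a count were added after their values were seen. Some genes of these lists are not reported here. Summed marker levels are log2 of the summed scaled intensities. A bound on a fold change sets each dim array at the lowest signal called well above background there. Alternatives were other scalings, background corrections and filters, blocks for series and slide, array weights, each series alone, only the groups compared, all probes of a gene, and each array left out. Groups come from source labels, which carry no replicate numbers. Figures used Python 3.11.15 and matplotlib 3.10.9. Precision is limited by the number of arrays and, for dim probes, by the background.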

Additional observations from a re-analysis of the deposited data

How the results depend on the processing

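Between the tissues of WT mice the 6 called regulators became 3 without scaling or without the filter (Cebpa, Ebf2 and Pparg in both), 3 with the slide as a block (Cebpa, Ebf2 and Ehmt1), 1 (Ebf2) in a fit to the 6 WT arrays alone, and 2 to 6 with arrays left out. Ebf2 was called in 26 of 26 tested alternatives and Cebpa in 25. Between the genotypes in scWAT the count of 1 became 0 without scaling, without the filter or with only scWAT arrays fitted, 3 with array weights, 4 in the second array series, and 0 to 4 with arrays left out. Ebf2 was called in 15 of 26. The interaction count of 0 became 1 (Ebf2) with array weights and ran from 0 to 1 with arrays left out. The counts of 0 between the tissues of Lr11 -/- mice and between the genotypes in BAT stayed at 0 in all alternatives. Over all probes, the 1692 called between the genotypes in scWAT became 151 without the filter, 7365 in the second series, 0 with only scWAT fitted and 17 to 6401 with arrays left out, and the 7970 between the tissues of WT mice 3993 with the slide as a block and 3104 to 10605 with arrays left out.

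Among the regulators directions turned only in comparisons in which the gene was not called. Pparg (−0.16) and Prdm16 (−1.28) turned between the genotypes in scWAT in the first array series, where the interaction of Pparg also turned (0.48). Between the genotypes in BAT, where differences were small, Zfp516 turned in 9 alternatives, Ehmt1 in 3 and Ebf2, Prdm16, Irf4 and Zfp423 in 1 each. Irf4 turned between the genotypes in scWAT to −1.57 in the second series and −1.54 with array weights, and ran from −1.52 (without Lr11 -/- scWAT replicate 1) to 1.97 with arrays left out. Between the tissues it turned in Lr11 -/- mice to 0.27 with the slide as a block, 1.35 in the second series and 1.17 with array weights, and ran from −2.10 to 1.39 (without Lr11 -/- scWAT replicate 1). In WT mice it turned to 0.79 with the slide as a block and ran from −1.06 to 0.38 (without WT scWAT replicate 3). Zfp423 turned between the genotypes in scWAT to 0.63 in the second series and ran from −0.76 to 0.33 (above 0 without replicate 1 of either genotype). Between the tissues it turned to 0.40 in WT mice and −0.30 in Lr11 -/- mice in the second series, and to −0.18 in the latter with array weights, and ran from −0.79 to 0.31 and from −0.16 to 0.30. Zfp516 ran from −0.088 (without Lr11 -/- scWAT replicate 2) to 1.49 between the genotypes in scWAT and turned between the tissues of WT mice in the first series (0.18), and Cebpb turned to −0.049 between the tissues of Lr11 -/- mice in the second series.

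Without scaling the median difference of all probes moved from 0.07 to −0.25 between the tissues of WT mice and from 0.04 to −0.20 between the genotypes in scWAT, and the share of calls that were higher from 63.2% to 34.5% and from 64.5% to 36.2%. Median scaling moved these medians to 0.20 and 0.17. The cause of these changes was not tested. No paired analysis was possible because the labels carry no replicate numbers.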
